A study of Mus musculus with 9 samples.

Results

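MLE-12 cells given extracellular vesicles from syndecan-1 deficient mice were set against MLE-12 cells given vesicles from wild-type mice, gene by gene. Every gene with a mean of at least 1 RPKM (a read count scaled to exon length and to library size) over these 6 libraries was included, which took in 11191 of the 21950 genes listed. At the edge of that limit, Dock4 was inside with a mean of 1.00 RPKM and Ghrl was outside with 0.999 RPKM. No gene passed the test at an adjusted p under 0.05, so all differences below are descriptions of 6 libraries. Among the 33 pathway lists with tested members, the mitotic genes had the highest share with more RNA in all 3 libraries given deficient vesicles, 55.1% against 21.2% of all genes. The metallothionein genes Mt1 and Mt2 were lower in the same 3 libraries. Ribosome biogenesis (32.4%), stress responses (29.5%) and NRF2 and oxidative stress genes (28.6%) had shares of lower members above the 11.1% of all genes. So did cytosolic ribosomal proteins (31.0%) and mitochondrially encoded respiratory genes (30.8%). In these 2 lists the sign of the median difference depended on which wild-type libraries were used. Over all 6 libraries the median of the ribosomal proteins was 0.07.

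MLE-12 is a mouse lung epithelial line established from lung tumors of animals in which the surfactant protein C promoter drives the SV40 large T antigen (SP-C/TAg), so every group carries that transgene and is 1 cell line. Cells at passage 17 received vesicles from the airway lavage of bleomycin-injured syndecan-1 deficient mice (3 libraries), vesicles from the lavage of bleomycin-injured wild-type mice (3 libraries), or regular culture medium as control (3 libraries). The recipient cells themselves were not described as altered in any group. The labels used here give neither vesicle dose nor exposure time nor the meaning of the tag D21, and do not say how many mice gave each preparation. Nor do they say that the 3 libraries of a group came from separate cultures or preparations, so p-values measure only the spread between libraries, which may be technical.

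Syndecan-1 is a cell-surface proteoglycan whose heparan sulfate chains bind growth factors and matrix, and in lung it is made mainly by epithelium. The heparan sulfate carried by syndecans also takes part in the making and the uptake of extracellular vesicles, small membrane-bound particles that carry proteins and RNA between cells. Bleomycin damages the alveolar epithelium and is the usual agent for experimental lung fibrosis in mice.

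The label of the line was checked against lung epithelial genes. Nkx2-1, the lung epithelial transcription factor, had 34.5 to 41.9 RPKM with deficient vesicles and 33.1 to 34.7 RPKM with wild-type vesicles. Sftpc, encoding surfactant protein C, had 15.4 to 21.1 RPKM with deficient vesicles and 15.3 to 17.9 RPKM with wild-type vesicles. Epcam, a general epithelial adhesion gene, was listed at 0 in all 6 libraries, and Cdh1, encoding E-cadherin, lay between 0.12 and 0.189 RPKM. Cdh1 had 1.34 to 1.40 RPKM in controls. Krt8, a keratin of simple epithelia, was high at 153 to 173 RPKM with deficient vesicles and 174 to 187 RPKM with wild-type vesicles. Of its exonic 50-base sequences, 26.9% occur in another annotated gene. Krt18, another keratin gene, was low at 0.574 to 0.872 RPKM with deficient vesicles and 0.515 to 0.615 RPKM with wild-type vesicles. Sftpd, encoding surfactant protein D, was at 0 to 0.0264 RPKM. Lung and general epithelial genes were thus each present in part.

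The wild-type group was not uniform, and every result below has to be read against that. The first principal component of the 6 libraries held 71.6% of the variance. Deficient replicates 1, 2 and 3 had scores of -6.73, -13.2 and -9.71 on it, and wild-type replicates 1, 2 and 3 had 14.6, 17.4 and -2.36. Wild-type replicates 1 and 2 thus sat together at one end, and wild-type replicate 3 sat nearer to the deficient libraries than to its own group. For 6008 of the 11191 genes (53.7%) replicate 3 lay between the mean of the deficient libraries and the mean of wild-type replicates 1 and 2. It was nearer to the deficient mean for 7248 genes (64.8%).

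**Figure D1:**
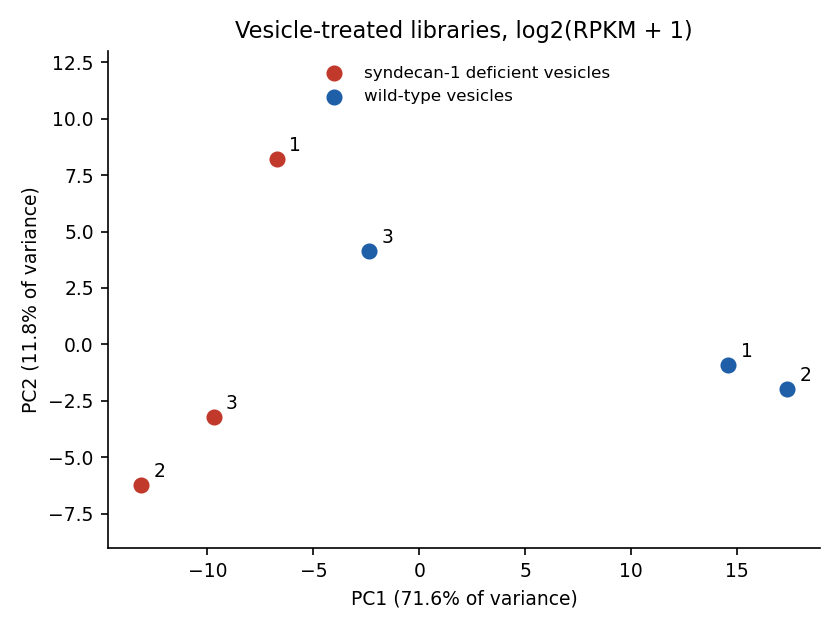
First and second principal components (x and y axes, in score units) of log2(RPKM + 1) over 11191 genes. Deficient replicates (red, numbered) and wild-type replicates (blue, numbered) are single libraries, and wild-type 3 at -2.36 on the first component lies away from wild-type 1 and 2 at 14.6 and 17.4.

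In units of single genes, the mean of wild-type replicates 1 and 2 was more than 0.5 above replicate 3 on the log2(RPKM + 1) scale for 95 genes and more than 0.5 below it for 176. These 271 genes were 2.42% of those tested. Each of the other 5 libraries departed by that much from the mean of its 2 fellow replicates in 0.143% to 0.742% of genes. The share beyond 0.5 was higher among short transcripts: 25.8% of genes with under 1000 bases of annotated exon were beyond 0.5, against 0.247% of genes with 8000 bases or more. The median exon length was 1500 bases for the offset genes and 4448 bases for all tested genes. The genes beyond 0.5 in the other 5 libraries were short too, with median lengths of 837 to 2305 bases. S100a6, encoding a small calcium-binding protein, shows the pattern at a high level, with 731, 642 and 690 RPKM with deficient vesicles and 409, 349 and 707 RPKM with wild-type vesicles. The gene mt-Atp8, a mitochondrial ATP synthase subunit with 204 bases, had 2618, 1860 and 2410 RPKM with deficient vesicles and 708, 630 and 2446 RPKM with wild-type vesicles. In both genes wild-type replicate 3 fell among the deficient libraries. The 13 protein genes of the mitochondrial genome made up 12.5% to 13% of summed RPKM with deficient vesicles and 14.1%, 14.9% and 12.9% with wild-type vesicles. The cause of the offset was not tested. Sequencing depth, recovered from the spacing of low RPKM values, was 28605783 to 32785456 reads with deficient vesicles, 24353257 to 26338900 with wild-type vesicles and 25024077 to 33558660 in controls.

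**Figure D2:**
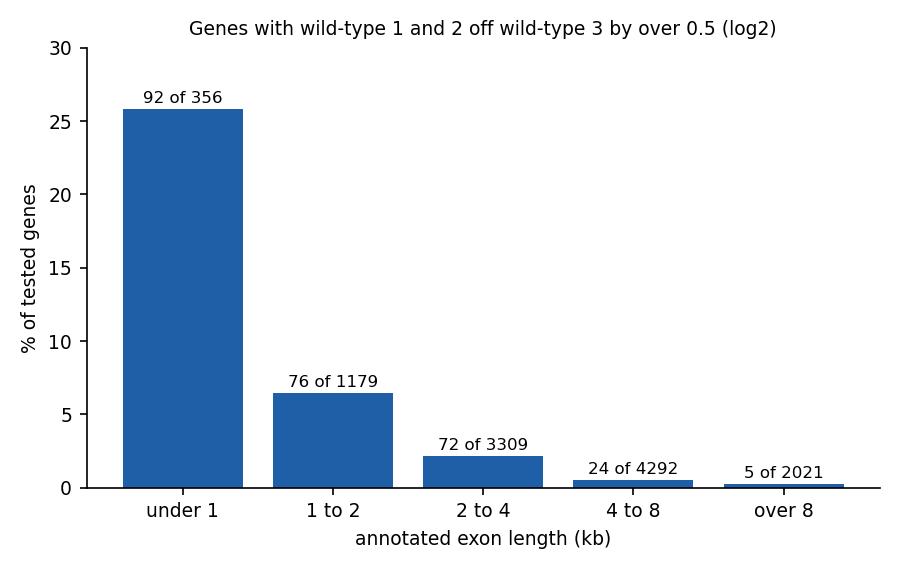
Percentage of tested genes (y axis) whose mean in wild-type replicates 1 and 2 differed from replicate 3 by more than 0.5 on the log2(RPKM + 1) scale, by annotated exon length in kilobases (x axis). The share is 25.8% in the shortest class and 0.247% in the longest, and the numbers above the bars give genes beyond 0.5 of genes in the class.

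Across all genes, limma's moderated test with Benjamini-Hochberg adjustment called 0 of 11191 genes higher and 0 lower (a background of 0% each). At an unadjusted p under 0.05 there were 2337 higher genes (20.9%) and 1082 lower genes (9.67%), and 1782 genes had an adjusted p under 0.1. The smallest adjusted p, 0.0531, belonged to the predicted gene Gm20594, a single-exon model of 449 bases. This gene, singled out after its values were seen, had 26.0, 23.7 and 27.7 RPKM with deficient vesicles and 4.21, 3.83 and 7.78 RPKM with wild-type vesicles. Without wild-type replicate 3 the same test called 2612 genes higher (23.3%) and 1196 lower (10.7%). With replicate 3 as the sole wild-type library it called Gm20594 alone (0.00894%), a fit in which that lone library is assumed to vary like the deficient ones. Adding the 3 control libraries to the estimate of the spread gave 1438 higher (12.8%) and 603 lower (5.39%).

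Because no gene was called, genes were described by whether the groups overlap, that is, whether all 3 deficient libraries lay on one side of all 3 wild-type libraries. This held for 3615 genes (32.3%): 2369 with deficient vesicles higher (21.2%) and 1246 with deficient vesicles lower (11.1%). The split depends on scaling. The RPKM values gave a median difference of 0.04 over all genes, and dividing by median-of-ratios factors moved it to 0 and gave 1799 higher (16.1%) and 1791 lower (16%) genes, so the higher share of the separated genes was 65.5% as deposited and 50.1% after scaling. Without wild-type replicate 3, 40% of genes lay higher and 21.7% lower, and against replicate 3 alone 30.9% and 21.9%. These percentages are the background for every list below. None of the 33 pathway lists and of the marker lists had a member that passed the test.

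**Figure D3:**
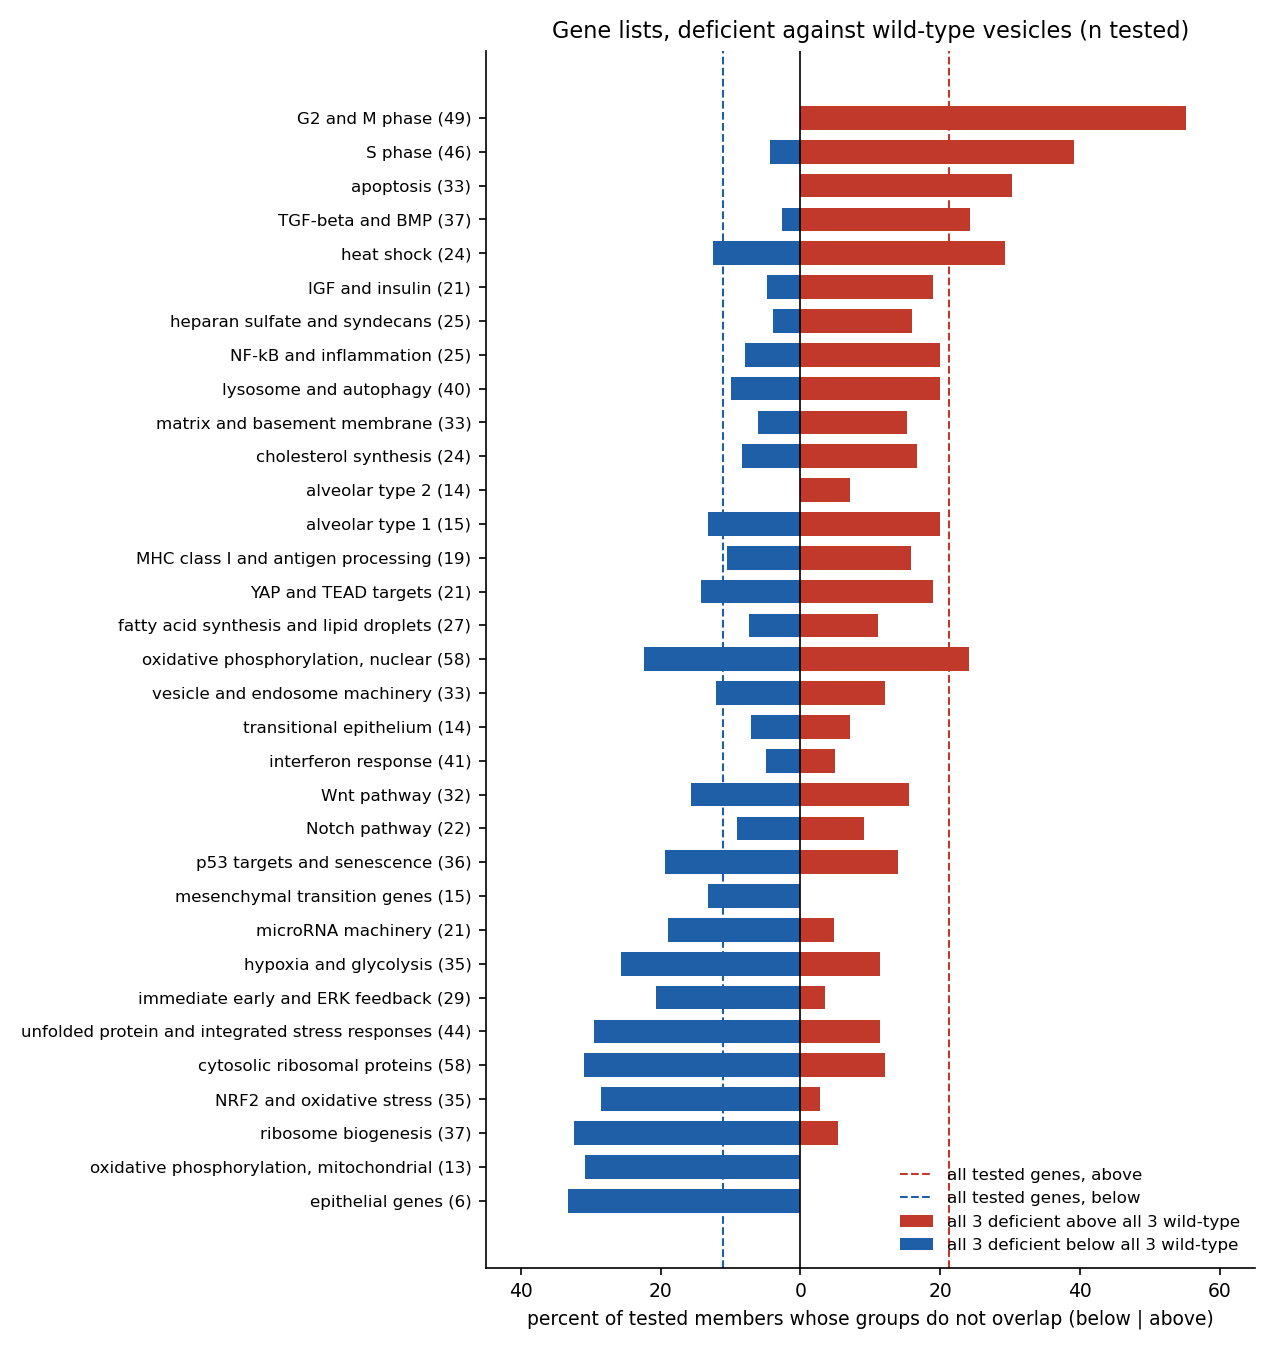
Percentage of the tested members of each gene list (number in brackets) whose 3 deficient libraries all lay above (red, right) or all below (blue, left) the 3 wild-type libraries. Dashed lines give the same for all tested genes, 21.2% above and 11.1% below, and the G2 and M phase list reaches 55.1% above.

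The G2 and M phase genes, which build the spindle, condense the chromosomes and drive entry into and exit from mitosis, had the highest share of members on one side among the 33 pathway lists. Of 49 tested members, 27 (55.1%) were higher in all 3 deficient libraries and 0 were lower in all 3, against backgrounds of 21.2% and 11.1%. Their median difference was 0.15 on the log2(RPKM + 1) scale, against 0.04 for all genes. The summed level of the list was 1477, 1472 and 1525 RPKM with deficient vesicles, 1401, 1346 and 1366 RPKM with wild-type vesicles and 2004, 1991 and 1974 RPKM in controls. The 2 vesicle groups did not overlap in this sum, and both lay under the controls.

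Many mitotic promoters are known to carry a CCAAT box and a cell cycle homology region (CHR), the element read by the DREAM and MuvB complexes. The 250 bases upstream of the RefSeq start (GRCm38.p6) are shown for Ect2 and Bub1, 2 of the members described next, because one holds both elements and the other the CCAAT box alone. Ect2 lies at chr3:27153879-27154128 and Bub1 at chr2:127831860-127832109, both printed 5′ to 3′ along the minus strand, which is the strand of the gene. Capitals mark every CHR (TTTGAA or TTCGAA) and CCAAT box (CCAAT), read on both strands, so that a reverse-strand CCAAT box appears as ATTGG.
Ect2: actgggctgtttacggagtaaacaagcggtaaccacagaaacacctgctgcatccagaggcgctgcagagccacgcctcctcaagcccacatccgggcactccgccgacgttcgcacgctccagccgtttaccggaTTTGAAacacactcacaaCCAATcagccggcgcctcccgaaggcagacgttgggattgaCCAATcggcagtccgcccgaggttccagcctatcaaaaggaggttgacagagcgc
Bub1: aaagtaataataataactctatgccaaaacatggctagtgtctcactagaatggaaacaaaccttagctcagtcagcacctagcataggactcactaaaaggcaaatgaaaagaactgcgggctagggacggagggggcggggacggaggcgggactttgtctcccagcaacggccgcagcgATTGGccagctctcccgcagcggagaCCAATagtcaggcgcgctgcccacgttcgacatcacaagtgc
A CHR was found in 42.2% of 45 upstream windows of 42 list genes with a promoter entry and in 17.1% of 32851 windows of all genes. A CCAAT box was found in 71.1% of the list's windows and in 33.8% of all windows. A match describes letters in the window and does not show that a factor bound there.

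Kinetochore and checkpoint genes were among the members with the smallest p. Ndc80, the outer kinetochore subunit that holds microtubules (ENSMUSG00000024056, chr17:71496100-71526857), had 20.4, 20.7 and 19.9 RPKM with deficient vesicles, against 16.04, 14.8 and 16.2 RPKM with wild-type vesicles. Its log2 difference was 0.36 ± 0.051 (SE, n = 3 each, limma adjusted p = 0.080), and controls had 23.9 to 26.0 RPKM. All 3 deficient libraries stood between the wild-type libraries and the controls. Bub1, a spindle checkpoint kinase (ENSMUSG00000027379), had 16.8, 18.1 and 17.5 RPKM with deficient vesicles and 13.1, 12.3 and 14.7 RPKM with wild-type vesicles. The log2 difference of Bub1 was 0.36 ± 0.068, with controls at 32.3 to 32.9 RPKM.

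Other members differed in size and some in sign, from 0.39 for Ncapg to -0.20 for Mad2l1. Ect2, the exchange factor that starts the cleavage furrow (ENSMUSG00000027699), had 26.6, 26.5 and 27.5 RPKM with deficient vesicles and 20.6, 19.1 and 22.5 RPKM with wild-type vesicles (log2 difference 0.36 ± 0.063). Ncapg, a condensin subunit, had 17.3, 17.8 and 16.6 RPKM with deficient vesicles and 12.6, 11.6 and 14.7 RPKM with wild-type vesicles. Kif11, the motor that separates the spindle poles, had 34.2, 35.5 and 34.8 RPKM with deficient vesicles and 28.4, 27.8 and 31.2 RPKM with wild-type vesicles. In all 3 genes wild-type replicate 3 was the wild-type library closest to the deficient ones. Top2a, the topoisomerase that untangles sister chromatids, had 105, 100.3 and 104 RPKM with deficient vesicles and 90.8, 84.6 and 93.8 RPKM with wild-type vesicles. Ccna2, encoding cyclin A2, had 52.6, 52.7 and 55.2 RPKM with deficient vesicles and 48.0, 44.9 and 47.6 RPKM with wild-type vesicles. Aurkb, the kinase that corrects kinetochore attachments, had a difference of 0.15 and Cenpa, the centromeric histone, 0.14, also without overlap.

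The mitotic list leaned to the higher side with each choice of wild-type libraries. Without wild-type replicate 3, 29 of 49 members (59.2%) were higher and 7 (14.3%) lower, against backgrounds of 40% and 21.7%. Against replicate 3 alone, 41 members (83.7%) were higher and 1 (2.04%) lower, against 30.9% and 21.9%. After median-of-ratios scaling 22 (44.9%) were higher and 0 lower, against backgrounds of 16.1% and 16%. Among the 47 members with at least 2000 bases of exon 26 were higher and 0 lower. The shares of all genes of that length were 21.3% and 10.7%. With all 9 libraries in the fit, 24 of 49 members passed limma's test in the higher direction and 0 in the lower. The shares of all genes were 12.8% and 5.39%. Without wild-type replicate 3 the test called 22 of 49 members higher and 5 lower, against 23.3% and 10.7% of all genes. A few members split the wild-type group instead. Mad2l1, a checkpoint gene, had 13.8, 13.7 and 14.8 RPKM with deficient vesicles and 19.3, 17.1 and 13 RPKM with wild-type vesicles. Plk1, a mitotic kinase, had 29.8, 28.5 and 31.2 RPKM with deficient vesicles and 34.7, 34.2 and 28.1 RPKM with wild-type vesicles. In both, wild-type replicates 1 and 2 were the highest of the 6 libraries and replicate 3 the lowest. In bulk RNA, more cells in mitosis and more of these transcripts per cell cannot be told apart.

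**Figure D4:**
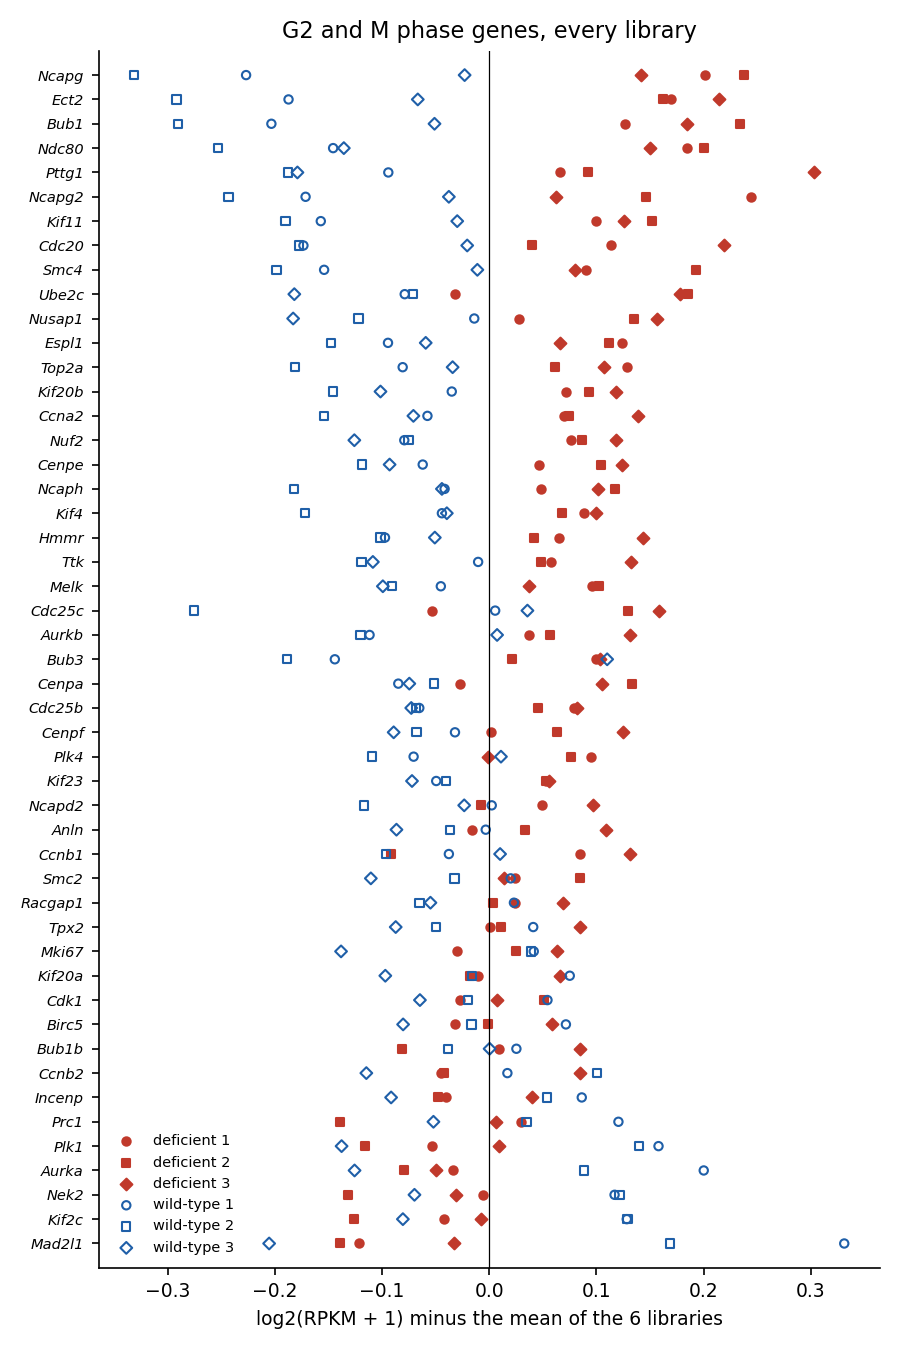
Every tested G2 and M phase gene (rows) in every library, as log2(RPKM + 1) minus the mean of the 6 libraries (x axis). Filled red symbols are deficient replicates and open blue symbols wild-type replicates; 27 of 49 rows show all red symbols to the right of all blue ones and 0 rows the reverse.

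S phase genes, which license and copy DNA, leaned the same way to a lesser extent. Of 46 members, 18 (39.1%) were higher in all 3 deficient libraries and 2 (4.35%) lower, with a median difference of 0.06. After median-of-ratios scaling the counts were 12 (26.1%) and 3 (6.52%), and against wild-type replicate 3 alone 25 (54.3%) and 6 (13%). Rpa2, a subunit of the single-strand DNA binding protein, had 25.5, 28.5 and 26.6 RPKM with deficient vesicles and 19.3, 19.5 and 23.02 RPKM with wild-type vesicles. Ccne2, encoding cyclin E2, had 20.5, 22.4 and 21.3 RPKM with deficient vesicles, and the wild-type libraries were close together at 18.3, 18.4 and 18.2 RPKM. Slbp, which binds the histone mRNA stem-loop, had 50.1, 55.6 and 50.9 RPKM with deficient vesicles and 37.5, 37.5 and 46.1 RPKM with wild-type vesicles. Rrm2, of ribonucleotide reductase, and E2f1, the S phase transcription factor, differed by 0.20 and 0.16 without overlap.

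Inhibitors of the cycle did not share a direction. Cdkn1b, encoding the kinase inhibitor p27, had 38.9, 51.1 and 45.2 RPKM with deficient vesicles and 32.9, 32.7 and 35.2 RPKM with wild-type vesicles (log2 difference 0.41 ± 0.092, limma adjusted p = 0.080). Cdkn2b, encoding the inhibitor p15, was lower, with 13.5, 13.9 and 13.8 RPKM with deficient vesicles and 16.7, 17.4 and 16.3 RPKM with wild-type vesicles (log2 difference -0.27 ± 0.047). The groups did not overlap in either gene. Btg2, an antiproliferative p53 target, had 10.3, 11.1 and 10.3 RPKM with deficient vesicles and 12.4, 11.97 and 12.7 RPKM with wild-type vesicles. Of the 36 p53 targets and senescence genes, 5 (13.9%) were higher and 7 (19.4%) lower.

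In the TGF-beta and BMP list, 9 of 37 members (24.3%) were higher in all 3 deficient libraries and 1 (2.70%) lower, near the background for higher genes. The members with the smallest p, Id3 and Smad6, are targets of BMP signals, and the receptor gene Acvr2a came next. Id3, an inhibitor of helix-loop-helix factors and a direct BMP target (ENSMUSG00000007872, chr4:136143497-136145755), had 53.1, 54.9 and 48.3 RPKM with deficient vesicles and 38.6, 37.7 and 41.2 RPKM with wild-type vesicles. Its log2 difference was 0.40 ± 0.063 (limma adjusted p = 0.080), and controls were lower still at 23.9 to 26.1 RPKM. Smad6, the inhibitory Smad that BMP signals induce, had 18.95, 20.02 and 18.2 RPKM with deficient vesicles and 15.7, 14.9 and 15.2 RPKM with wild-type vesicles, with controls at 8.23 to 8.32 RPKM. Both genes stood farther from the controls with deficient vesicles than with wild-type vesicles. Smad7, the inhibitory Smad of TGF-beta signals, had 5.66, 5.56 and 5.20 RPKM with deficient vesicles and 4.84, 4.18 and 5.04 RPKM with wild-type vesicles. The receptors Bmpr1a and Acvr2a were higher in all 3 deficient libraries, by 0.16 and 0.21. Smad2, the receptor-activated Smad of TGF-beta, was the member on the other side, by -0.06. Against wild-type replicate 3 alone the list had 11 higher members (29.7%) and 6 lower (16.2%).

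Apoptosis genes counted 10 higher members of 33 (30.3%) and 0 lower, with a median difference of 0.08. The 10 include genes that promote cell death and genes that block it. Bmf, which promotes death by binding Bcl-2 proteins, had 9.24, 9.91 and 9.33 RPKM with deficient vesicles and 8.05, 7.87 and 8.10 RPKM with wild-type vesicles, with 3.06 to 3.43 RPKM in controls. Xiap, an inhibitor of caspases, had 15.7, 16.9 and 15.4 RPKM with deficient vesicles and 12.2, 12.3 and 14.1 RPKM with wild-type vesicles. Mcl1, a survival protein, differed by 0.18, and Casp9, the caspase activated on the apoptosome, by 0.07. After median-of-ratios scaling 7 members (21.2%) were higher and 0 lower.

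The lower genes included those of the metallothioneins, small cysteine-rich proteins that bind zinc and copper. Metals induce them through metal response elements, and oxidants and glucocorticoids induce them too. The 250 bases upstream of the RefSeq starts of Mt1 (chr8:94178839-94179088) and Mt2 (chr8:94172368-94172617), GRCm38.p6, plus strand, are shown because these 2 neighbouring genes were both lower with deficient than with wild-type vesicles while their levels against the controls differed. Capitals mark the core of the metal response element, TGCACNC or TGCGCNC on either strand.
Mt1: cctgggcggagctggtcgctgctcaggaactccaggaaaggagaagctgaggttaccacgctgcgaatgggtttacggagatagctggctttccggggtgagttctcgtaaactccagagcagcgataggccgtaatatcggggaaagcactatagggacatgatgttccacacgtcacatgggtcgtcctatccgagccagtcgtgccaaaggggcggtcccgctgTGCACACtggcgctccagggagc
Mt2: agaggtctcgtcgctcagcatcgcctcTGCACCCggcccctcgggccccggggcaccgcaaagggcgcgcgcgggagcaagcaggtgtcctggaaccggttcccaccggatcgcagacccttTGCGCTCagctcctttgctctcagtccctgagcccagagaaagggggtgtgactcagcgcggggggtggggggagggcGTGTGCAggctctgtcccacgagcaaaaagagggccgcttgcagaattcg
The core occurred 1 time in the Mt1 window and 3 times in the Mt2 window, and 21.4% of the 32851 upstream windows held at least 1. Cores outside the 250 bases printed were not counted, so the counts do not rank the 2 promoters. Whether the elements bear on the levels was not tested.

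Mt1 (ENSMUSG00000031765) had 168, 130 and 154 RPKM with deficient vesicles, against 310, 335 and 231 RPKM with wild-type vesicles, and 208 to 253 RPKM in controls. Its log2 difference was -0.94 ± 0.15 (n = 3 each, limma adjusted p = 0.080). All 3 deficient libraries were below the controls, and wild-type replicate 3 was again nearest to them. Mt2 (ENSMUSG00000031762) had 10.2, 10.6 and 14.1 RPKM with deficient vesicles, 20.5, 15.8 and 20.8 RPKM with wild-type vesicles and 125 to 148 RPKM in controls. The log2 difference of Mt2 was -0.67 ± 0.14, and here replicate 3 was the highest wild-type library, so the difference does not rest on the offset pair. Both genes kept their direction against wild-type replicate 3 alone, by -0.62 and -0.80.

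The metallothioneins belong to the list of NRF2 and oxidative stress genes, of which 1 of 35 members (2.86%) was higher and 10 (28.6%) were lower. Without wild-type replicate 3 the counts were 7 (20%) and 17 (48.6%), and against it alone 7 (20%) and 12 (34.3%). Pgd, an enzyme of the pentose phosphate pathway, had 19.2, 17.3 and 18.3 RPKM with deficient vesicles and 22.6, 22.6 and 21.5 RPKM with wild-type vesicles. Fth1, the ferritin heavy chain, differed by -0.20. Keap1, which holds NRF2 inactive, was also among the lower members, by -0.20. Gclm, the modifier subunit of the enzyme that starts glutathione synthesis, was the higher one, by 0.14.

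The unfolded protein and integrated stress responses, which slow translation and enlarge the folding capacity of the endoplasmic reticulum, had 13 of 44 members (29.5%) lower in all 3 deficient libraries and 5 (11.4%) higher. Against wild-type replicate 3 alone 23 members (52.3%) were lower and 7 (15.9%) higher. Atf5, a transcription factor translated under stress (ENSMUSG00000038539, chr7:44812256-44816658), had 56.2, 51.5 and 55.9 RPKM with deficient vesicles and 72.8, 80.2 and 66.9 RPKM with wild-type vesicles. Its log2 difference was -0.42 ± 0.074 (limma adjusted p = 0.080), and controls had 20.7 to 22.6 RPKM. Ddit3, encoding CHOP, had 35.5, 25.8 and 29.7 RPKM with deficient vesicles and 43.3, 45.2 and 40.3 RPKM with wild-type vesicles, with controls at 9.43 to 9.62 RPKM. In these 2 genes the deficient libraries lay between the wild-type libraries and the controls. Atf4, the factor upstream of both, differed by -0.16. Manf, a secreted folding factor, had 27.8, 26.4 and 27.6 RPKM with deficient vesicles and 50.9, 53.2 and 30.6 RPKM with wild-type vesicles. Most of the Manf difference came from wild-type replicates 1 and 2, since it was -0.16 against replicate 3 alone and -0.66 against all 3.

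**Figure D5:**
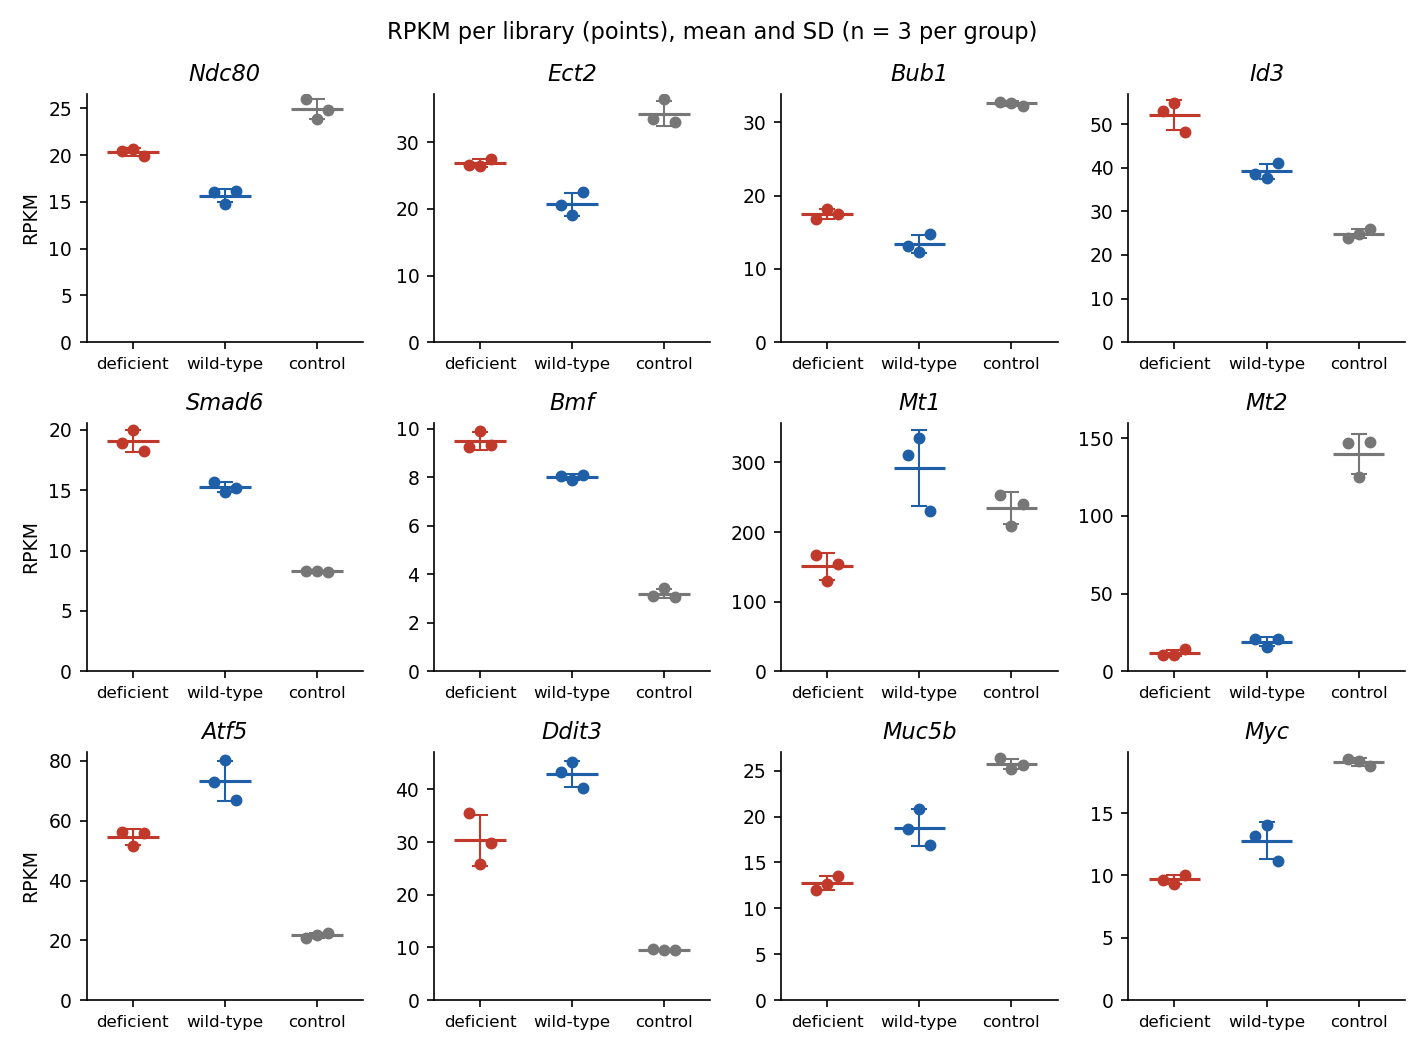
RPKM (y axis) of 12 genes in each library (points) with the group mean (line) and SD (bar), for deficient vesicles (red, left), wild-type vesicles (blue, middle) and controls (grey, right), n = 3 each. Mt1 shows 130 to 168 RPKM with deficient vesicles and 231 to 335 RPKM with wild-type vesicles, and in each panel the 3 red points do not overlap the 3 blue ones.

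Ribosome biogenesis genes, which make and process ribosomal RNA, had 12 of 37 members (32.4%) lower and 2 (5.41%) higher, and against wild-type replicate 3 alone 22 (59.5%) lower and 2 (5.41%) higher. Nop10, a small nucleolar RNP protein, had 36.1, 30.9 and 33.1 RPKM with deficient vesicles and 45.3, 43.9 and 38.9 RPKM with wild-type vesicles. Dkc1, its pseudouridine synthase partner, had 11.9, 10.6 and 10.7 RPKM with deficient vesicles and 13.1, 13 and 12.2 RPKM with wild-type vesicles. Myc, a transcription factor known to drive ribosome synthesis, had 9.67, 9.36 and 10.0 RPKM with deficient vesicles and 13.2, 14.0 and 11.1 RPKM with wild-type vesicles (log2 difference -0.36 ± 0.080, limma adjusted p = 0.080). The groups did not overlap in any of these 3 genes. Of 29 immediate early and ERK feedback genes, to which Myc was assigned, 6 (20.7%) were lower and 1 (3.45%) higher. The lower ones include Dusp6, a phosphatase that ERK induces, by -0.16, and the higher one was Phlda1, by 0.44.

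Cytosolic ribosomal proteins and the respiratory chain consist largely of short transcripts, and their values depended on which wild-type library was used. Of 58 ribosomal protein genes, with a median exon length of 1805 bases, 18 (31.0%) were lower and 7 (12.1%) higher. The median difference was 0.07 against the whole wild-type group, -0.06 against wild-type replicate 3 alone and 0.13 against replicates 1 and 2. Against the whole group 35 members had a positive difference and 23 a negative one. Rps29 had 621, 415 and 528 RPKM with deficient vesicles and 1124, 1189 and 718 RPKM with wild-type vesicles. Many of these genes share sequence with pseudogenes, and their level is uncertain for that reason: 60% of the exonic 50-base sequences of Rplp1 occur in another annotated gene. Nuclear genes of oxidative phosphorylation split into 14 higher (24.1%) and 13 lower (22.4%) of 58. Ndufa1, a subunit of complex I with 419 bases, had 116, 79.9 and 96.2 RPKM with deficient vesicles and 280, 284 and 127 RPKM with wild-type vesicles. Of the 13 genes encoded in mitochondria 4 (30.8%) were lower and 0 higher, with a median difference of -0.19 against the whole wild-type group and 0.03 against its replicate 3.

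Hypoxia and glycolysis genes had 9 of 35 members (25.7%) lower and 4 (11.4%) higher, and 19 (54.3%) lower against wild-type replicate 3 alone. Pfkl, a phosphofructokinase subunit, had 12.4, 11.8 and 13.1 RPKM with deficient vesicles and 15.4, 14.99 and 15.3 RPKM with wild-type vesicles. Vegfa, an endothelial growth factor that alveolar type 1 cells also make, had 18.9, 18.4 and 19.8 RPKM with deficient vesicles and 22.5, 22.96 and 21.8 RPKM with wild-type vesicles. The groups were well apart in both genes. Eno1, encoding enolase, differed by -0.33, but 26.0% of its 50-base sequences occur in another gene.

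Syndecan-1 itself was not altered in the recipient cells by design, and Sdc1 (ENSMUSG00000020592) had 50.6, 58.1 and 55.7 RPKM with deficient vesicles, against 52.1, 52.2 and 59.9 RPKM with wild-type vesicles. The groups overlapped, and the log2 difference was 0.00 ± 0.076 (95% interval -0.17 to 0.18, limma adjusted p = 0.984). Controls had 66.0 to 69.2 RPKM. Of 25 heparan sulfate and syndecan genes 4 (16%) were higher and 1 (4%) lower. B3gat3, which completes the linker on which the chain is built, had 32.9, 33.6 and 35.1 RPKM with deficient vesicles and 23.8, 23.6 and 29.6 RPKM with wild-type vesicles. Sulf2, a secreted sulfatase that trims heparan sulfate, was the lower member, with 29.2, 27.4 and 29.5 RPKM with deficient vesicles and 39.3, 42.8 and 33.4 RPKM with wild-type vesicles. Sdc4, another syndecan, and Gpc1, a glypican, overlapped between groups, with differences of 0.25 and 0.29.

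Vesicle and endosome machinery had 4 of 33 members (12.1%) on each side. Arf6, a GTPase of endocytic recycling, had 53.3, 62.1 and 56.7 RPKM with deficient vesicles and 41.4, 41.0 and 49.5 RPKM with wild-type vesicles. Rab11a, a GTPase of recycling endosomes, had 22.6, 23.3 and 24.4 RPKM with deficient vesicles and 17.4, 15.2 and 20.9 RPKM with wild-type vesicles. Of 21 genes of the microRNA machinery 4 (19%) were lower, all of them parts of the silencing complex, and 1 (4.76%) was higher. Ago1, an Argonaute, had 15.7, 14.8 and 15.8 RPKM with deficient vesicles and 17.5, 17.6 and 16.7 RPKM with wild-type vesicles. Tnrc6a, its GW182 partner, differed by -0.19, Tnrc6c by -0.15, and Hnrnpu, the higher member, by 0.20.

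Wnt genes counted 5 higher and 5 lower (15.6% each) of 32. Dvl3, a Dishevelled protein that relays the signal, had 12.1, 11.4 and 11.8 RPKM with deficient vesicles and 15.03, 15.2 and 13.6 RPKM with wild-type vesicles. The co-receptor Lrp5 and the target Ccnd1 were lower, with log2 differences of -0.29 and -0.16. Rnf43, a ubiquitin ligase that removes Wnt receptors, and Fzd7, such a receptor, were higher by 0.17 and 0.16. Notch genes had 2 members on each side (9.09% each) of 22.

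Among lung epithelial programs, alveolar type 2 genes had 1 higher member of 14 (7.14%) and 0 lower, and alveolar type 1 genes 3 higher (20%) and 2 lower (13.3%) of 15. Cav2, encoding caveolin-2, had 36.3, 47.4 and 45.7 RPKM with deficient vesicles and 31.3, 31.7 and 33.7 RPKM with wild-type vesicles. Hopx, a homeodomain factor of type 1 cells, differed by 0.13. Transitional epithelium genes had 1 member on each side (7.14% each) of 14. The 6 tested epithelial genes had 2 lower (33.3%) and 0 higher, Jup and Krt8, and the 15 mesenchymal transition genes 2 lower (13.3%) and 0 higher. Krt8, a simple epithelial keratin, had 153, 162 and 173 RPKM with deficient vesicles and 174, 175 and 187 RPKM with wild-type vesicles.

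Airway genes gave one of the wider gaps. Muc5b, a gel-forming airway mucin (ENSMUSG00000066108, chr7:141839070-141873084, exon length 14964 bases), had 12.01, 12.7 and 13.6 RPKM with deficient vesicles, 18.7, 20.9 and 16.9 RPKM with wild-type vesicles and 25.2 to 26.4 RPKM in controls. Its log2 difference was -0.52 ± 0.080 (limma adjusted p = 0.080), and -0.38 against wild-type replicate 3 alone. The deficient libraries were the farthest from the controls. Foxj1, the ciliated cell factor, and Tppp3, another ciliated cell gene, were higher in all 3 deficient libraries at low levels. Foxj1 had 1.41 to 1.71 RPKM with deficient vesicles and 1.03 to 1.30 RPKM with wild-type vesicles. Tppp3 had 2.46 to 2.62 RPKM with deficient vesicles and 1.96 to 2.22 RPKM with wild-type vesicles.

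Immune response genes depended on which wild-type library was used. Of 41 interferon response genes 2 were higher and 2 lower (4.88% each). Against wild-type replicate 3 alone 20 (48.8%) were lower and 3 (7.32%) higher, with a median difference of -0.13, and without it 10 (24.4%) were higher and 3 (7.32%) lower. Isg15, an interferon-induced ubiquitin-like protein, had 48.0, 43.8 and 30.9 RPKM with deficient vesicles and 40.3, 29.0 and 52.9 RPKM with wild-type vesicles. Its spread within each group was as wide as that between groups. MHC class I genes had 3 higher (15.8%) and 2 lower (10.5%) of 19, and B2m, the light chain of MHC class I, had 1718, 1691 and 1711 RPKM with deficient vesicles and 2137, 2218 and 1829 RPKM with wild-type vesicles. Of 25 NF-kB and inflammation genes 5 (20%) were higher and 2 (8%) lower. The Toll-like receptor genes Tlr2 and Tlr4 were among the higher ones. Tlr2, a receptor for bacterial lipoproteins, had 8.36, 10.1 and 9.16 RPKM with deficient vesicles, 7.23, 7.32 and 7.45 RPKM with wild-type vesicles and 2.82 to 3.25 RPKM in controls. Tlr4, the endotoxin receptor, had 7.997, 9.11 and 8.04 RPKM with deficient vesicles and 6.25, 5.75 and 7.62 RPKM with wild-type vesicles.

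Heat shock genes had 7 higher (29.2%) and 3 lower (12.5%) of 24, and the other lists lay near the background in the higher direction or below it. Lysosome and autophagy genes had 8 higher (20%) and 4 lower (10%) of 40, with the ubiquitin-like Gabarap at 168, 164 and 170 RPKM with deficient vesicles and 129, 130 and 152 RPKM with wild-type vesicles. Matrix and basement membrane genes had 5 higher (15.2%) and 2 lower (6.06%) of 33. Among them Col4a5, a type IV collagen chain, had 124, 155 and 134 RPKM with deficient vesicles and 94.5, 87.0 and 117 RPKM with wild-type vesicles. IGF and insulin genes had 4 higher (19%) and 1 lower (4.76%) of 21, and YAP and TEAD targets 4 higher (19%) and 3 lower (14.3%) of 21. Cholesterol synthesis had 4 higher (16.7%) and 2 lower (8.33%) of 24, and fatty acid synthesis and lipid droplets 3 higher (11.1%) and 2 lower (7.41%) of 27. The lead of the higher side in small lists depended on scaling. After median-of-ratios scaling the lower members outnumbered the higher ones in heat shock (4 higher and 6 lower), lysosome and autophagy (5 and 6), matrix (2 and 6), IGF and insulin (3 and 4) and YAP and TEAD targets (2 and 6). The same held in cholesterol synthesis (3 and 4), fatty acid synthesis (3 and 4), NF-kB (3 and 5), MHC class I (2 and 4) and alveolar type 2 genes (1 and 2). Nuclear oxidative phosphorylation then had 9 higher and 17 lower members, and alveolar type 1 and heparan sulfate genes had equal counts of 2 and of 3. The TGF-beta and BMP list had more higher than lower members (8 and 2).

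The genes with the largest differences and the widest gaps between the nearest libraries were chosen after their values were seen, leaving out predicted models. The 24 with the largest differences, 12 in each direction, had a median exon length of 1134 bases. For 21 of them wild-type replicate 3 was nearer to the deficient mean than to the mean of replicates 1 and 2, and 12 shared over 10% of their 50-base sequences with another gene. The higher side included ribosomal pseudogenes such as Rpl36-ps3, with a difference of 1.51. The lower side was led by Ccdc36, Teddm2 and Ndufa1, with differences of -2.10, -1.41 and -1.16, ahead of Mt1. Among the 16 genes with the widest gaps, 8 in each direction, replicate 3 was nearer to the deficient mean in 5. Cox7a1, a cytochrome oxidase subunit typical of muscle, had 5.19, 4.69 and 4.86 RPKM with deficient vesicles, 3.16, 2.47 and 2.61 RPKM with wild-type vesicles and 0.184 to 0.768 RPKM in controls. Nox1, an NADPH oxidase that makes superoxide, had 1.47, 1.71 and 1.73 RPKM with deficient vesicles and 0.199, 0.272 and 0.964 RPKM with wild-type vesicles. Both genes were higher in every deficient library than in every wild-type library, at low levels. Controls had 1.12, 2.09 and 2.05 RPKM of Nox1, a range that holds the deficient libraries and lies above the wild-type ones. Uqcc3, an assembly factor of respiratory complex III, was lower, with 13.1, 12.04 and 16.1 RPKM with deficient vesicles and 20.7, 22.6 and 20.9 RPKM with wild-type vesicles. Mif, a cytokine-like tautomerase, had 142, 126 and 142 RPKM with deficient vesicles and 182, 187 and 170 RPKM with wild-type vesicles, and 34.1% of its 50-base sequences occur elsewhere.

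Genes of other cells were examined because lavage vesicles may bring RNA of their donors. Of the macrophage markers Marco, Chil3 and Siglecf were listed at 0 in all 6 libraries, as were the neutrophil markers Ly6g and Elane and the T cell marker Cd3d. The 21 macrophage markers summed to 5.17 to 5.31 RPKM with deficient vesicles and 4.23 to 5.22 RPKM with wild-type vesicles, and Csf1r, which did not overlap, had 1.30 to 1.70 RPKM with deficient vesicles and 0.865 to 1.19 RPKM with wild-type vesicles. Controls, which received no vesicles, had a macrophage sum of 4.75 to 5.06 RPKM and 1.44 to 1.49 RPKM of Csf1r, which is within the range with deficient vesicles. The 13 neutrophil markers summed to 1.00 to 1.99 RPKM with deficient vesicles and 1.25 to 1.66 RPKM with wild-type vesicles. Lymphocyte markers summed to 0.367 to 0.473 RPKM with deficient vesicles and 0.169 to 0.431 RPKM with wild-type vesicles. The 12 fibroblast markers summed to 792 to 917 RPKM with deficient vesicles and 751 to 893 RPKM with wild-type vesicles, nearly all of it Dcn, while Col3a1 and Postn stayed under 0.01 RPKM. Controls summed to 1.065 to 1.425 RPKM for neutrophil markers, 0.102 to 0.160 RPKM for lymphocyte markers and 272.5 to 281.7 RPKM for fibroblast markers. Dcn had 742 to 865 RPKM with deficient vesicles, 698 to 843 RPKM with wild-type vesicles and 192 to 200 RPKM in controls. Col1a1, a fibroblast collagen gene, went the other way. It had 43.2 to 48.0 RPKM with deficient vesicles, 44.8 to 47.8 RPKM with wild-type vesicles and 78.9 to 79.8 RPKM in controls. Pdgfra went with Dcn, at 5.29 to 5.62, 4.79 to 5.48 and 1.08 to 1.14 RPKM in the same order. The fibroblast sum was thus higher in both vesicle groups than in controls, mainly through Dcn, and the source of that RNA was not tested. The lymphocyte sum was higher too, but it lay near the floor. No lymphocyte marker reached a mean of 1 RPKM, and the lowest wild-type sum of 0.169 RPKM was close to the highest control sum of 0.160 RPKM.

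Globin genes also separated the vesicle groups. Hbb-bs, an adult beta globin, had 7.49, 1.90 and 0.686 RPKM with deficient vesicles and 0.243, 0.0463 and 0.0449 RPKM with wild-type vesicles, and controls had 0.672, 0.846 and 0.189 RPKM. Hba-a1, an alpha globin, had 2.497, 0.578 and 0.601 RPKM with deficient vesicles and 0.101, 0.0482 and 0.0935 RPKM with wild-type vesicles, with 0.823, 0.771 and 0.148 RPKM in controls. Hba-a2 and Hbb-bt showed the same order between the vesicle groups. In deficient replicate 3 the levels of Hbb-bs and Hba-a1 lay within the range of the controls, which received no vesicles, and in replicate 2 that of Hba-a1 did while that of Hbb-bs was above it. The 12 endothelial and erythroid markers together summed to 4.98 to 19.9 RPKM with deficient vesicles, 3.06 to 3.24 RPKM with wild-type vesicles and 2.06 to 4.24 RPKM in controls. Alas2, the heme synthesis enzyme of red cell precursors, overlapped between the vesicle groups. Globin copies share sequence (53.2% of 50-base sequences for Hbb-bs), so reads cannot be assigned to one copy with certainty. Whether globin RNA bears on any other difference was not tested.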

How the data were processed

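RNA of MLE-12 cells at passage 17 was isolated with Trizol and sequenced as stranded mRNA libraries (Illumina TruSeq), per the labels' protocols. The submitters' processing notes name TopHat2 2.0.7 and the builds GRCm38 and mm10; the read counter is not given in the sources used here. Expression was deposited by the authors as RPKM of 21950 genes in 9 value columns, per the file headers, and all 9 were used. The control columns carry only the line's name and a number and were assigned by elimination.

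Gene identifiers were matched to GENCODE M21 (21748 matched, 202 not) for coordinates, exon lengths and the share of exonic 50-base sequences found in another gene. Depth came from low RPKM values, which are whole reads divided by length and depth; 59.8% to 62.9% of the low values used were whole within 0.001 of a read. Upstream sequences were taken from RefSeq (GRCm38.p6).

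Tests used limma 3.58.1 in R 4.3.3 with a variance trend on log2(RPKM + 1), for genes with a mean of at least 1 RPKM over the 6 vesicle libraries, fitted on these 6 alone, with Benjamini-Hochberg adjustment over 11191 genes and a threshold of 0.05. A fold on this scale understates the change of low genes. The fit was tested on simulated data. The alternatives changed the pseudocount, filter, scaling, libraries, moderation, weights and block. The rule for named genes took called genes with the largest differences or widest gaps, Sdc1, and in each list the 3 members of lowest p. As none were called, other genes printed were chosen after their values were seen. Members and lists were chosen with earlier results of these data known. Of 34 pathway lists, 1 (long noncoding RNAs) had no tested member.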

Additional observations from a re-analysis of the deposited data

How the results depend on the processing

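The count of called genes was 0 higher and 0 lower with a pseudocount of 0.1, no filter on low values, no variance trend, robust moderation, and exon lengths of at least 2000 bases. A mean of at least 5 RPKM, median-of-ratios scaling, the replicate block, and the fit without wild-type replicates 1 and 2 each gave 1 higher (Gm20594) and 0 lower. Fitting all 9 libraries gave 1438 higher and 603 lower, and library weights 3971 higher and 2089 lower. The weights of wild-type replicates 1, 2 and 3 were 9.48, 0.806 and 0.209, so the weighted wild-type mean rested mostly on replicate 1. Leaving out 1 replicate at a time gave 0 to 2612 higher and 0 to 1196 lower, with calls only without wild-type replicate 3. The labels do not say that the replicate numbers pair the libraries, so they were not taken as pairs. Same-numbered libraries of the 2 groups had correlations of 0.11, -0.13 and 0.03 in their deviations from the group means. Because wild-type replicate 3 was offset from its group, these values cannot exclude pairing. Genes whose groups do not overlap numbered 2590 to 4476 higher and 1431 to 2428 lower when 1 replicate was left out, against 2369 and 1246 with all. Leaving out libraries can only keep or add such genes, so the direction of this change was fixed in advance. Without deficient replicate 1 there were 2040 lower, and against wild-type replicate 3 alone 2447 lower. The separated genes in both directions after scaling shared 3045 with the 3615 found before it. With exon lengths of at least 2000 bases, 2049 were higher and 1030 lower of 9622.

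The difference of Sdc1 was -0.04 after median-of-ratios scaling, between -0.04 and 0.068 with 1 replicate left out, and -0.13 without both wild-type replicates 1 and 2. Without those 2, S100a6 was at -0.042 and mt-Atp8 at -0.11. The cause of these reversals was not tested. No other of the genes recomputed in this way changed direction in the alternatives run. Precision varied among genes near 1 RPKM. The standard error was 0.063 for Tnc and 0.19 for Sycp3, against a median of 0.065 over all tested genes. The short transcript mt-Atp8 had 0.46 at a high level. Across genes, the SD of the log2 difference was 0.46 for exon lengths under 1000 bases and 0.12 for 8000 bases or more.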
